A study of Mus musculus with 9 samples.

Results

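Hexokinases and phosphofructokinases open glycolysis, and each step can be carried by several isozymes that are encoded by separate genes. The levels of 10 such genes, *Hk1*, *Hk2*, *Gpi1*, *Pfkl*, *Pfkm*, *Pfkp*, *Pfkfb1*, *Pfkfb2*, *Pfkfb3* and *Pfkfb4*, were followed by RNA-Seq in mouse embryonic fibroblasts (MEFs). They were taken by gene symbol from the 24341 genes of the count table, and all 10 had enough reads to be tested in each comparison. The 9 samples were 3 WT, 3 *Atm-/-* and 3 *Sirt6-/-* libraries, all labelled as MEFs of the C57BL/6 strain grown in DMEM with 10% FBS. *Atm* encodes a kinase that responds to DNA breaks, and *Sirt6* encodes a deacylase that acts on histone H3. The question asked of these cells is how loss of either protein changes the expression of glycolytic genes.

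The genotypes differ in more than the named gene. The labels give the genotype of each sample as WT, *Atm-/-* or *Sirt6-/-*, but they also name P53-/- and doubly null mice as sources and do not say which samples came from these. The study's methods describe both the *Atm*-null line, which is *Atm-/-; p53-/-*, and the *Sirt6*-null line as immortalized MEFs from separate laboratories. They do not state the origin of the WT cells that were sequenced, or whether these were immortalized. Reads of *Trp53*, the gene of p53, numbered 806 to 946 in the *Atm-/-* libraries, 6563 to 7108 in WT and 9081 to 9218 in *Sirt6-/-*. The effects of *Atm* or *Sirt6*, of p53 and of the origin or immortalization of a line therefore cannot be told apart here. *Sirt6* had 402 to 487 reads in WT and 4 to 7 in *Sirt6-/-*. *Atm* had 1536 to 1627 reads in WT and 3443 to 3768 in *Atm-/-*, which checks nothing, since a count over the whole gene does not show which exons are read. *Atm-/-* below means the libraries that carry this label. No source used here says whether the 3 samples of a genotype were separate cultures, so p-values measure the spread between these samples, which may be technical.

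Libraries held 32187040 to 33837949 counted reads, and 3 reads corresponded to 0.0887 to 0.0932 CPM (counts scaled to the library total). WT replicate 2 stood somewhat apart, with a chi-square per gene of 15.2 to 16.4 against the other WT samples where all other pairs of replicates lay at 5.25 to 6.9. Without it the same calls were made for all 10 genes in both comparisons with WT. Fibroblast markers were present in all libraries, but their summed level was 27100 to 30200 CPM in WT, 19700 to 20000 in *Sirt6-/-* and 9520 to 9750 in *Atm-/-*, where *Lum* was at 0 in every sample. At least 9 of the 11 markers reached 1 CPM in every sample of each genotype. Summed epithelial markers had 46.2 to 50.9 CPM in *Atm-/-*, 19.5 to 23.9 in WT and 15.5 to 20 in *Sirt6-/-*. Endothelial markers had 10.3 to 13.1, 2.95 to 4.86 and 0.652 to 0.992 in the same order. Leukocyte markers had 19.8 to 22.1, 15.5 to 17.1 and 18.4 to 23.1. Erythroid, neural and hepatocyte sums stayed at or below 3.37 CPM. The part of these differences in the results was not tested.

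Hexokinase traps glucose in the cell as glucose 6-phosphate. HK1 and HK2 both can bind the outer mitochondrial membrane, HK1 being the widespread form and HK2 the form that insulin and hypoxia induce. Glucose-6-phosphate isomerase, encoded by *Gpi1*, turns the product into fructose 6-phosphate, and phosphofructokinase-1 (PFK1), a tetramer of liver (*Pfkl*), muscle (*Pfkm*) and platelet (*Pfkp*) type subunits, commits it to glycolysis. The bifunctional PFKFB enzymes make and break fructose 2,6-bisphosphate, a strong activator of PFK1. PFKFB3 has a high ratio of kinase to phosphatase activity, PFKFB1 is the form first described in liver and muscle, PFKFB2 that of heart, and PFKFB4 that of testis.

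Among these genes, *Hk2*, *Pfkfb3* and *Pfkfb4* are known targets of the hypoxia-inducible factor HIF-1, and others may be targets too. ACGTG, a form of the HIF-1 core motif, was searched for. The mean ratios of *Hk1* to *Hk2* and of *Pfkfb3* to *Pfkfb4* differed between all genotypes. That of *Pfkl* to *Pfkp* differed between WT and the mutants but was similar in the mutants. The stretches before start sites are shown for the 2 pairs that include the named targets, *Hk1* with *Hk2* and *Pfkfb3* with *Pfkfb4*. Each is 250 bases, 5′ to 3′ on the strand of the gene, from RefSeq on GRCm38.p6 (the same build as mm10, which the files use), with ACGTG or its reverse complement CACGT in capitals.
*Hk1*, chr10:62379909-62380158, minus strand: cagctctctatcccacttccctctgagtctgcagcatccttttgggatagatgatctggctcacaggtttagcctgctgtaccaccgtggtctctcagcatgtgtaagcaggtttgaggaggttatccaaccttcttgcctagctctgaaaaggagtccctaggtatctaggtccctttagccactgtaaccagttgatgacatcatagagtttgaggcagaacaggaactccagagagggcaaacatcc
*Hk2*, chr6:82774455-82774704, minus strand: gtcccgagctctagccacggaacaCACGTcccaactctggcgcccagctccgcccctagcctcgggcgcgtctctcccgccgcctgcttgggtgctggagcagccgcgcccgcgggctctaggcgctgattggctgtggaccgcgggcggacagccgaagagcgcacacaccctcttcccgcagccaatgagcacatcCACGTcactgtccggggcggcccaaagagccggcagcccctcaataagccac
*Pfkfb3*, chr2:11553930-11554179, minus strand: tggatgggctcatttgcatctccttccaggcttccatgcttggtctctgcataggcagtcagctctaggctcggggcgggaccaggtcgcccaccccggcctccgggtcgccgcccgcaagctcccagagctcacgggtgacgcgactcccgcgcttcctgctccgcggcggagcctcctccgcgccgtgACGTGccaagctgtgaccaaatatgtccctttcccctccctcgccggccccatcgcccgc
*Pfkfb4*, chr9:108991652-108991901, plus strand: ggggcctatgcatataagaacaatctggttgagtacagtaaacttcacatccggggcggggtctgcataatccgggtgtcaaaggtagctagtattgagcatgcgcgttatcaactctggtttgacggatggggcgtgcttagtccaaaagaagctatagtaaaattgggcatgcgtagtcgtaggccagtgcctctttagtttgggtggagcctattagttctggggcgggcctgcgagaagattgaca
*Hk2* held the motif 226 and 52 bases before its start, and *Pfkfb3* held it 60 bases before the outer start that is shown. Neither the *Hk1* nor the *Pfkfb4* window held these letters, nor did a second *Hk1* window at chr10:62340422-62340671, which is not shown. The *Hk1* window shown also lies before the outer start of its gene. Which start these cells use was not tested. The windows of *Pfkl* and *Pfkp*, also not shown, did not hold them either. The second *Pfkfb3* window, at chr2:11502091-11502340, held CACGTG, in which the motif overlaps its own reverse complement, so that its first bases lie 53 and 52 bases before the start. RefSeq gave 20 windows for the 10 genes. ACGTG on either strand was in 7 of the 20, from 4 genes (*Hk2*, *Pfkm*, *Pfkfb2* and *Pfkfb3*), and in 5444 of 32851 such windows over all genes (16.6%). A match is a description of the letters and does not show binding. GCGTG, another form of the core, was not searched for. It is present in the *Pfkfb4* window and in the windows of *Pfkl*, *Pfkp* and *Hk1* that are not shown. A window without ACGTG may therefore still hold a core.

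Compared with WT, *Hk1* was about 3-fold higher in *Atm-/-* and *Sirt6-/-*, *Pfkp* and *Pfkfb2* were lower, *Pfkfb3* was lower still, and *Hk2* and *Pfkfb4* differed in direction between the mutants. In *Atm-/-*, 4 of the 10 genes were higher and 5 lower than in WT (edgeR's quasi-likelihood test, Benjamini-Hochberg adjusted p under 0.05 over all genes tested). The background is high, as 68.4% of the 13283 genes tested in this comparison passed, 34.7% higher and 33.6% lower. In *Sirt6-/-*, again 4 were higher and 5 lower, against a background of 76.6% of 13206 genes, 39.2% higher and 37.4% lower. The RPKM values of the groups did not overlap for 9 of the 10 genes in *Atm-/-* against WT and for 9 of the 10 in *Sirt6-/-* against WT, where 74.6% and 78.9% of all genes tested did not overlap. With so high a background, what follows rests on the sizes of the changes and on the shares. The median log2 fold change of the 10 genes was -0.23 in *Atm-/-* (0.01 over all genes tested) and -0.28 in *Sirt6-/-* (0.02 over all genes). Both comparisons use the same 3 WT samples and are not independent. In cultures measured in bulk, fewer cells that express a gene and less RNA per cell cannot be told apart.

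**Figure D1:**
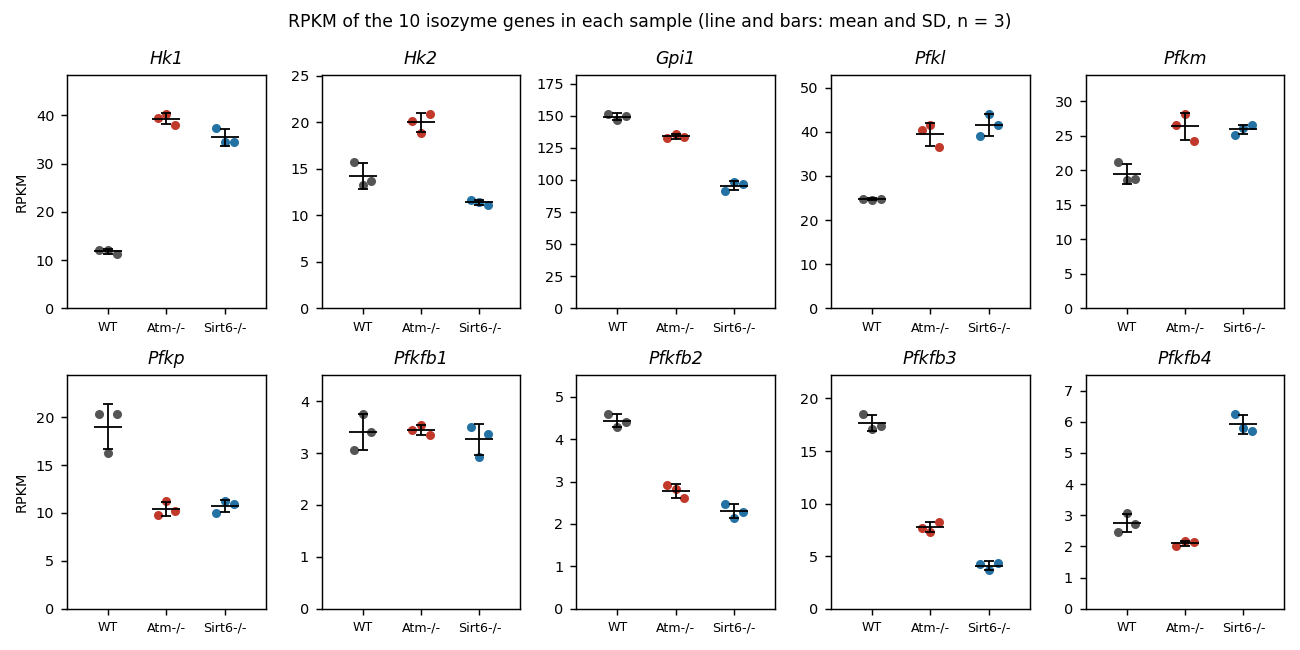
RPKM (vertical axes, from 0, one scale per gene) of each of the 10 genes in the 3 WT, 3 *Atm-/-* and 3 *Sirt6-/-* samples; points are samples, and the line and bars are the mean and SD (n = 3). *Hk1* samples lie between 11.3 and 12.1 in WT and above 34 in the other genotypes, and only *Pfkfb1* overlaps between WT and either of them.

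RPKM values are given per sample in the order of replicates 1, 2 and 3. RPKM, reads per kilobase of the listed transcript and scaled to the read total, is the only scale here on which levels of different genes can be compared. Fold changes come from the counts with TMM scaling, which sets the median gene near 0. Scaled by library totals, as RPKM is, all fold changes in *Atm-/-* against WT are shifted by 0.16 upwards on the log2 scale, and those in *Sirt6-/-* by 0.09. With library totals 6156 genes were higher and 3326 lower in *Atm-/-*, where TMM gave 4611 and 4469. None of the calls for the 10 genes against WT changed with the scaling, but the log2 fold change in *Atm-/-* moved to 0.49 for *Hk2*, 0.44 for *Pfkm* and -0.16 for *Gpi1*.

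*Hk1* (chr10:62268855-62379908, minus strand, GRCm38) had 12.1, 12.1 and 11.3 RPKM in WT. It had 39.4, 40.4 and 38.0 in *Atm-/-*, and 37.4, 34.4 and 34.5 in *Sirt6-/-*. All mutant samples lay far above all WT samples. *Hk1* was 2.96-fold higher in *Atm-/-* (log2 fold change 1.57, SE 0.05, edgeR adjusted p = 2.94e-12) and 2.82-fold higher in *Sirt6-/-* (1.497, SE 0.06, adjusted p = 3.75e-12). An antisense gene, *Hk1os*, shares 157 exon bases with *Hk1*. It had only 4 to 8 reads in WT, 7 to 9 in *Atm-/-* and 17 to 27 in *Sirt6-/-*, where *Hk1* itself had 1562 reads or more.

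*Hk2* (chr6:82725025-82774454, minus strand) differed in the opposite direction in the mutants. It had 15.8, 13.2 and 13.7 RPKM in WT, 20.1, 18.9 and 20.9 in *Atm-/-* and 11.6, 11.4 and 11.1 in *Sirt6-/-*, so that the 3 groups did not overlap. *Hk2* rose 1.25-fold in *Atm-/-* (log2 fold change 0.33, SE 0.07, edgeR adjusted p = 0.000625) and fell in *Sirt6-/-* by 0.41 on the log2 scale (SE 0.07, adjusted p = 6.25e-05). Compared directly, *Hk2* was 1.68-fold higher in *Atm-/-* than in *Sirt6-/-* (log2 fold change 0.75, SE 0.05, adjusted p = 3.02e-11).

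*Hk3* and *Hkdc1* had few reads beside *Hk1* and *Hk2*. *Hk3* had no reads in WT and *Sirt6-/-* and at most 2 in an *Atm-/-* sample. *Hkdc1*, a hexokinase-like gene 3228 bases from *Hk1*, had 0 reads in each WT sample and 16, 11 and 13 in *Atm-/-*, at least 12.1-fold higher with TMM scaling when WT is set at 3 reads over the group, and 6, 0 and 0 in *Sirt6-/-*.

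*Hk1* made up 43.4, 47.9 and 45.1% of the summed RPKM of both hexokinase genes in WT, so that *Hk2* was the larger of the pair in all 3 WT samples. In *Atm-/-* the *Hk1* share was 66.2, 68.1 and 64.5%, and in *Sirt6-/-* it was 76.3, 75.1 and 75.6%. The mean share was 45.5% ± 2.26 (SD, n = 3) in WT, 66.3% ± 1.81 in *Atm-/-* and 75.7% ± 0.621 in *Sirt6-/-*. The differences of 20.8 and 30.2 percentage points each gave p = 0.1 in an exact two-sided permutation test, which is the smallest value that 3 against 3 samples allow, so no comparison of shares can pass 0.05. Over all 27 share comparisons the Benjamini-Hochberg adjusted value of that p was 0.112. The ratio of *Hk1* to *Hk2* was 0.836 ± 0.0768 in WT, 1.97 ± 0.16 in *Atm-/-* and 3.11 ± 0.105 in *Sirt6-/-* (SD, n = 3).

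A high share was reached with different totals. The summed RPKM of *Hk1* and *Hk2* was 26.0 ± 1.55 in WT, 59.2 ± 0.273 in *Atm-/-* and 46.8 ± 1.93 in *Sirt6-/-* (SD, n = 3). In *Atm-/-* both genes were above WT, and in *Sirt6-/-* the rise of *Hk1* went with a fall of *Hk2*.

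The level of a share depends on the transcript lengths by which reads are divided. With the full exon length of each gene in GENCODE in place of the listed length, the *Hk1* share was 30.6% ± 1.94 in WT, 50.9% ± 2.03 in *Atm-/-* and 62.1% ± 0.793 in *Sirt6-/-* (SD, n = 3). In *Atm-/-*, *Hk1* and *Hk2* are then about equal.

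**Figure D2:**
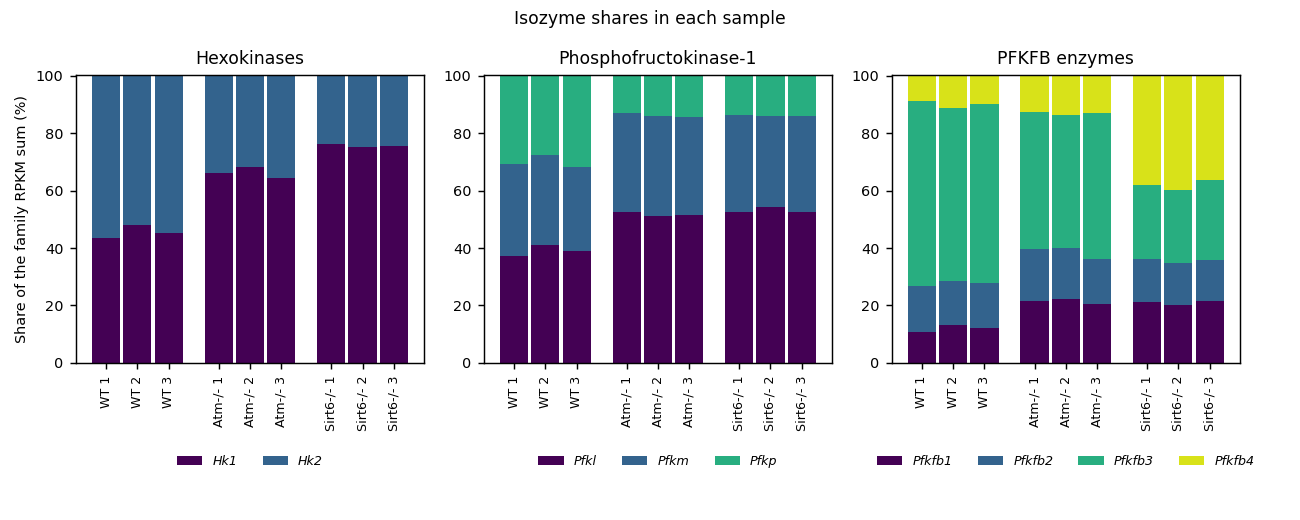
Share of each gene in the summed RPKM of its family (vertical axes, percent), one stacked bar per sample, for hexokinases (left), PFK1 subunits (middle) and PFKFB enzymes (right). *Hk1* takes 43.4 to 47.9% in WT and 75.1 to 76.3% in *Sirt6-/-*, *Pfkp* takes less in both mutants than in WT, and *Pfkfb4* takes 36.2 to 39.9% of its family in *Sirt6-/-*.

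*Gpi1* (chr7:34201330-34230336, minus strand) has no second isozyme here and was the most abundant of the 10 genes in each genotype. It had 152, 147 and 149.7 RPKM in WT, 132, 136 and 133 in *Atm-/-* and 91.4, 98.6 and 96.9 in *Sirt6-/-*. The groups did not overlap, and *Sirt6-/-* was lowest. *Gpi1* fell by 0.32 on the log2 scale in *Atm-/-* (SE 0.04, edgeR adjusted p = 5.62e-06) and fell by 0.73 in *Sirt6-/-* (SE 0.05, adjusted p = 1.92e-09). In the direct comparison it was 1.34-fold higher in *Atm-/-* than in *Sirt6-/-* (adjusted p = 3.9e-09). In *Atm-/-* the fall was 0.16 with library totals, still with an adjusted p under 0.05.

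Of the PFK1 subunits, the liver and muscle types were higher and the platelet type lower in the mutants. *Pfkl* (chr10:77986947-78010083, minus strand) had 24.8, 24.5 and 24.9 RPKM in WT, 40.4, 41.5 and 36.5 in *Atm-/-* and 39.1, 44.1 and 41.6 in *Sirt6-/-*. All mutant samples were above WT, while the mutants overlapped each other. *Pfkl* was 1.43-fold higher in *Atm-/-* (log2 fold change 0.51, SE 0.05, edgeR adjusted p = 8.73e-07) and 1.59-fold higher in *Sirt6-/-* (0.67, SE 0.05, adjusted p = 2.57e-08).

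*Pfkm* (chr15:98092589-98132451, plus strand) had 21.2, 18.6 and 18.7 RPKM in WT, 26.6, 28.2 and 24.3 in *Atm-/-* and 25.1, 26.1 and 26.5 in *Sirt6-/-*. The rise was smaller than that of *Pfkl*, but again no mutant sample reached down to WT. *Pfkm* was 1.21-fold higher in *Atm-/-* (log2 fold change 0.27, SE 0.07, edgeR adjusted p = 0.00341) and 1.25-fold higher in *Sirt6-/-* (0.32, SE 0.06, adjusted p = 0.000343). Of 8 muscle markers, *Myog*, *Ckm* and *Actn2* had no reads in any library, and the summed level of the list was 12.5 to 16 CPM in WT, 3.04 to 4.06 in *Atm-/-* and 1.98 to 2.57 in *Sirt6-/-*. The part of this difference in the level of *Pfkm* was not tested.

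*Pfkp* (chr13:6579768-6648777, minus strand) had 20.4, 16.3 and 20.3 RPKM in WT, 9.81, 11.2 and 10.2 in *Atm-/-* and 10.0, 11.2 and 10.9 in *Sirt6-/-*. WT replicate 2 was the lowest WT sample and still above every mutant sample. *Pfkp* was lower in *Atm-/-*, with WT 2.04-fold above it (log2 fold change -1.03, SE 0.09, edgeR adjusted p = 6.25e-08), and in *Sirt6-/-*, with WT 1.88-fold above it (-0.91, SE 0.08, adjusted p = 1.32e-07). Without WT replicate 2 the log2 fold changes were -1.13 and -1.02. *Pitrm1*, a protease gene on the other strand, shares 748 exon bases with *Pfkp* and was higher in both mutants (log2 fold changes 0.98 and 0.28), so it moved against *Pfkp*. *Senp1* shares 18 exon bases with *Pfkm* and had log2 fold changes of 0.50 in *Atm-/-* and -0.18 in *Sirt6-/-*. Whether strand was used in the counting is not given in the sources used here.

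*Pfkp* took a smaller and *Pfkl* a larger share of the summed PFK1 RPKM in the mutants. In WT, *Pfkl* made up 37.4, 41.2 and 38.9% of the summed RPKM of the 3 subunits, *Pfkm* 31.9, 31.3 and 29.2% and *Pfkp* 30.7, 27.5 and 31.8%. In *Atm-/-* the *Pfkl* share was 52.6, 51.3 and 51.4% and the *Pfkp* share 12.8, 13.9 and 14.4%. In *Sirt6-/-* they were 52.7, 54.2 and 52.7% and 13.5, 13.8 and 13.8%. The mean *Pfkp* share was 30.0% ± 2.27 in WT, 13.7% ± 0.814 in *Atm-/-* and 13.7% ± 0.185 in *Sirt6-/-* (SD, n = 3). It was 16.3 percentage points below WT in each mutant (exact permutation p = 0.1 for each). *Pfkl* was 1.31 ± 0.162 times *Pfkp* in WT, 3.80 ± 0.282 times in *Atm-/-* and 3.89 ± 0.0651 times in *Sirt6-/-*.

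The *Pfkm* share differed less, with 30.8% ± 1.41 in WT, 34.5% ± 0.325 in *Atm-/-* and 33.1% ± 0.95 in *Sirt6-/-* (SD, n = 3; exact permutation p = 0.1 for each mutant). The latter difference depended on the lengths used: with full exon lengths the *Pfkm* share was 45.7% in WT and 45.3% in *Sirt6-/-*. The *Pfkp* share was 15.9% in WT, 6.63% in *Atm-/-* and 6.68% in *Sirt6-/-* with these lengths, lower in level but again well below WT in the mutants. The *Pfkl* share was then 38.4% in WT, 46.4% in *Atm-/-* and 48.0% in *Sirt6-/-*, so that it exceeded WT by 8.06 points in *Atm-/-* where the listed lengths gave 12.6, and *Pfkm* (46.9% in *Atm-/-*) had the largest mean share in WT and *Atm-/-*. The summed RPKM of the subunits was 63.2 ± 3.54 in WT, 76.2 ± 5.01 in *Atm-/-* and 78.2 ± 3.67 in *Sirt6-/-* (SD, n = 3; exact permutation p = 0.1 for each mutant against WT).

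Of the PFKFB genes, *Pfkfb2* and *Pfkfb3* were lower in both mutants, and *Pfkfb4* was lower in *Atm-/-* and higher in *Sirt6-/-*. *Pfkfb3* (chr2:11471433-11554077, minus strand), which favours synthesis of the activator of PFK1, had 18.5, 17.1 and 17.4 RPKM in WT, 7.71, 7.30 and 8.30 in *Atm-/-* and 4.27, 3.66 and 4.39 in *Sirt6-/-*. The 3 groups were well apart. WT was 2.54-fold above *Atm-/-* (log2 fold change -1.35, SE 0.06, edgeR adjusted p = 1.36e-10) and 4.56-fold above *Sirt6-/-* (-2.19, SE 0.07, adjusted p = 1.61e-12). *Pfkfb3* was 1.81-fold higher in *Atm-/-* than in *Sirt6-/-* (log2 fold change 0.86, SE 0.08, adjusted p = 5.9e-09).

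*Pfkfb4* (chr9:108991778-109032228, plus strand) had 2.48, 3.07 and 2.72 RPKM in WT, 2.002, 2.16 and 2.13 in *Atm-/-* and 6.25, 5.79 and 5.70 in *Sirt6-/-*. *Sirt6-/-* stood above and *Atm-/-* below all WT samples. *Pfkfb4* was 2.02-fold higher in *Sirt6-/-* than in WT (log2 fold change 1.01, SE 0.11, edgeR adjusted p = 6.18e-07), and it fell by 0.56 on the log2 scale in *Atm-/-* (SE 0.13, adjusted p = 0.00158). The direct comparison gave a 2.94-fold higher level in *Sirt6-/-* than in *Atm-/-* (log2 fold change of *Atm-/-* against *Sirt6-/-* -1.56, SE 0.10, adjusted p = 1.88e-11).

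*Pfkfb2* (chr1:130689182-130729253, minus strand) had 4.60, 4.29 and 4.40 RPKM in WT, 2.91, 2.81 and 2.60 in *Atm-/-* and 2.47, 2.15 and 2.29 in *Sirt6-/-*. Both mutants were below WT in every sample. WT was 1.79-fold above *Atm-/-* (log2 fold change -0.84, SE 0.08, edgeR adjusted p = 2.47e-07) and 2.05-fold above *Sirt6-/-* (-1.03, SE 0.08, adjusted p = 2.29e-08). *Yod1*, a deubiquitinase gene on the other strand that shares 154 exon bases with *Pfkfb2*, was lower too (log2 fold changes -0.98 and -1.24), and reads of one may be counted for the other if strand was not used.

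*Pfkfb1* (chrX:150588229-150643878, plus strand) had 3.06, 3.75 and 3.40 RPKM in WT, 3.45, 3.54 and 3.35 in *Atm-/-* and 3.50, 2.92 and 3.37 in *Sirt6-/-*, and these groups overlapped. It did not pass the test in *Atm-/-* (log2 fold change -0.15, 95% interval -0.46 to 0.17, edgeR adjusted p = 0.391) or *Sirt6-/-* (-0.15, interval -0.48 to 0.18, adjusted p = 0.4). With 164 to 217 reads per sample, it had the fewest reads of the family in each genotype, and a change within these intervals is not excluded. *Apex2*, on the other strand, shares 123 exon bases with *Pfkfb1*. Its log2 fold changes were 0.30 in *Atm-/-* and -0.54 in *Sirt6-/-*, and its part in the *Pfkfb1* counts was not tested.

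In WT, *Pfkfb3* made up 64.7, 60.5 and 62.3% of the summed RPKM of the 4 PFKFB genes. This share was 48.0, 46.2 and 50.7% in *Atm-/-* and 25.9, 25.2 and 27.9% in *Sirt6-/-*. *Pfkfb4* made up 8.64, 10.9 and 9.76% in WT and 12.5, 13.7 and 13.0% in *Atm-/-*, but 37.9, 39.9 and 36.2% in *Sirt6-/-*, where it was the most abundant of the family by RPKM in each sample. This rank depends on the listed lengths. In reads, *Sirt6-/-* had 680, 628 and 641 of *Pfkfb4* and 697, 596 and 741 of *Pfkfb3*. With full exon lengths the *Pfkfb3* share was 60% in WT, 47.5% in *Atm-/-* and 26% in *Sirt6-/-*. The mean *Pfkfb3* share was 62.5% ± 2.06 in WT, 48.3% ± 2.26 in *Atm-/-* and 26.3% ± 1.39 in *Sirt6-/-* (SD, n = 3; exact permutation p = 0.1 for each mutant against WT and between the mutants). *Pfkfb3* was 6.47 ± 0.966 times *Pfkfb4* in WT, 3.71 ± 0.285 times in *Atm-/-* and 0.696 ± 0.0698 times in *Sirt6-/-*.

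The *Pfkfb4* share was 9.77% ± 1.13 in WT and 13.0% ± 0.598 in *Atm-/-* (SD, n = 3; exact permutation p = 0.1), although the level of the gene fell, while the family sum fell further. That sum was 28.3 ± 0.388 RPKM in WT, 16.1 ± 0.279 in *Atm-/-* and 15.6 ± 1 in *Sirt6-/-* (SD, n = 3). Likewise *Pfkfb1*, whose level did not pass the test, had a share of 12.1% ± 1.34 in WT, 21.4% ± 0.957 in *Atm-/-* and 20.9% ± 0.688 in *Sirt6-/-*. The *Pfkfb2* share was 15.7% ± 0.407 in WT, 17.3% ± 1.2 in *Atm-/-* (exact permutation p = 0.2) and 14.8% ± 0.228 in *Sirt6-/-* (exact permutation p = 0.1). The *Pfkfb* sum of *Atm-/-* was 0.502 RPKM above that of *Sirt6-/-* (exact permutation p = 0.6), while the shares that made up the sums lay 21.9 points apart for *Pfkfb3*.

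**Figure D3:**
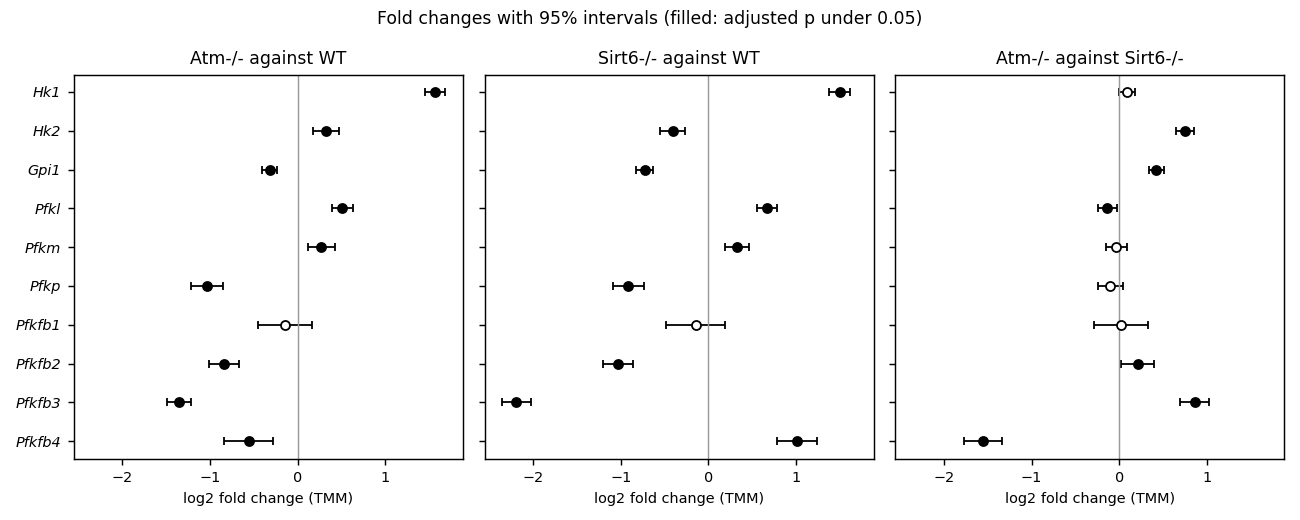
Log2 fold changes with TMM scaling (horizontal axes) and their 95% intervals for the 10 genes (rows) in the 3 comparisons; filled points have an adjusted p under 0.05. *Hk2* and *Pfkfb4* lie on opposite sides of 0 in the comparisons with WT, and *Pfkfb4* has the largest difference between the mutants, at -1.56.

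Between the mutants, 4 of the 10 genes were higher in *Atm-/-* than in *Sirt6-/-* (*Hk2*, *Gpi1*, *Pfkfb2* and *Pfkfb3*), 2 were lower (*Pfkl* and *Pfkfb4*) and 4 did not pass, and 6 of the 10 did not overlap. Over all 13460 genes tested, 75.8% passed, 38% higher and 37.8% lower, and 78.1% did not overlap, so the count for these 10 genes was not above the background. The median log2 fold change of the 10 genes was 0.05, against 0.00 over all genes tested. For *Hk1* the log2 fold change was 0.09 (95% interval -0.01 to 0.18, edgeR adjusted p = 0.0847). It passed when scaled by library totals (adjusted p = 0.00655) or without *Sirt6-/-* replicate 1 (adjusted p = 0.0303).

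The small differences of *Pfkl* and *Pfkfb2* between the mutants depended on single libraries. For *Pfkl* the log2 fold change of -0.14 (edgeR adjusted p = 0.0223) no longer passed without *Atm-/-* replicate 3 (adjusted p = 0.17), *Sirt6-/-* replicate 2 (0.144) or *Sirt6-/-* replicate 3 (0.0515), or with library totals (0.176). For *Pfkfb2* the log2 fold change of 0.21 (adjusted p = 0.0414) did not pass without *Atm-/-* replicate 1 (0.132) or 2 (0.0829), without *Sirt6-/-* replicate 2 (0.147) or 3 (0.0719), or in DESeq2 (0.0582). The intervals of the others were -0.16 to 0.08 for *Pfkm*, -0.24 to 0.04 for *Pfkp* and -0.29 to 0.33 for *Pfkfb1* on the log2 scale. The *Pfkp* shares of the mutants had the same mean to 3 digits (exact permutation p = 1).

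By RPKM, the order in WT was *Gpi1*, *Pfkl*, *Pfkm*, *Pfkp*, *Pfkfb3*, *Hk2*, *Hk1*, *Pfkfb2*, *Pfkfb1* and *Pfkfb4*. The samples of neighbours overlapped for *Pfkm* and *Pfkp*, for *Pfkp* and *Pfkfb3*, and for *Pfkfb1* and *Pfkfb4*. In *Atm-/-* the order was *Gpi1*, *Pfkl*, *Hk1*, *Pfkm*, *Hk2*, *Pfkp*, *Pfkfb3*, *Pfkfb1*, *Pfkfb2* and *Pfkfb4*, with overlap only of *Pfkl* and *Hk1*. In *Sirt6-/-* it was *Gpi1*, *Pfkl*, *Hk1*, *Pfkm*, *Hk2*, *Pfkp*, *Pfkfb4*, *Pfkfb3*, *Pfkfb1* and *Pfkfb2*, with overlap only of *Hk2* and *Pfkp*. *Hk1* thus stood seventh in WT and at the third place in each mutant. Like the shares, these places depend on the listed lengths. For *Hk1* the listed length was 4157 bases and the full exon length 8532.

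The rest of glycolysis was read as a list of 24 further genes, 17 of which had enough reads in *Atm-/-* against WT. Of these, 7 were higher, 6 lower and 4 did not pass, with a median log2 fold change of 0.06 (0.01 over all genes tested). With library totals the list had 10 higher and 3 lower, so its balance depends on the scaling. In *Sirt6-/-* against WT 15 were tested, 4 higher, 7 lower and 4 not past the threshold, with a median of -0.10 (0.02 over all genes), and library totals gave 4 and 7 again. Over all genes tested, 68.4% passed in *Atm-/-* and 76.6% in *Sirt6-/-*, beside 13 of 17 and 11 of 15 on the list.

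*Ldhb*, the subunit of lactate dehydrogenase that prevails in heart, differed most among well-counted genes of the list, with 6.15 ± 0.564 RPKM in WT, 40.0 ± 4.92 in *Atm-/-* and 198 ± 10.7 in *Sirt6-/-* (SD, n = 3; log2 fold changes 2.54 and 4.92, edgeR adjusted p = 2.69e-11 and 2.83e-16). *Bpgm*, which makes 2,3-bisphosphoglycerate, was higher too, by 1.73 in *Atm-/-* (adjusted p = 4.47e-10) and 0.37 in *Sirt6-/-* (adjusted p = 0.0127) on the log2 scale. *Eno3*, the muscle type enolase, fell by 0.48 in *Atm-/-* (adjusted p = 2.09e-06; 0.32 with library totals) and by 1.28 in *Sirt6-/-* (adjusted p = 1.31e-10). *Aldoc*, the brain type aldolase, had 14, 10 and 10 reads in WT and 95, 87 and 53 in *Atm-/-* (log2 fold change 2.64, adjusted p = 1.52e-05), but 14, 5 and 17 in *Sirt6-/-*. *Eno4* had at most 2 reads in a WT sample, 11 to 16 in *Atm-/-* and 10, 5 and 8 in *Sirt6-/-*. It was below the filter in *Sirt6-/-* against WT.

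**Figure D4:**
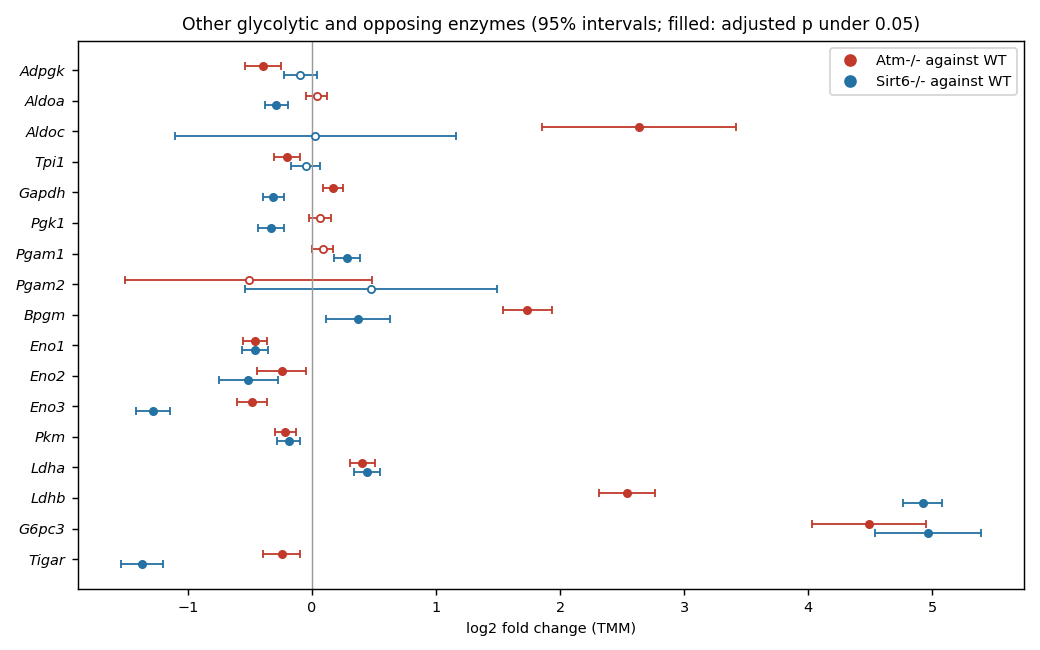
Log2 fold changes with TMM scaling (horizontal axis) and 95% intervals of the other glycolytic and opposing enzymes against WT, red for *Atm-/-* and blue for *Sirt6-/-*; filled points have an adjusted p under 0.05, and genes near 0 reads in a group are left out. *Ldhb* and *G6pc3* lie far to the right in both mutants, and most other enzymes lie within 1 unit of 0.

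Enzymes that oppose these steps were few. Of 6 listed genes, *Fbp1*, *Fbp2*, *G6pc* and *G6pc2* had too few reads to be tested. *G6pc3*, the widely expressed glucose-6-phosphatase that undoes the hexokinase step, had 0.555, 1.15 and 0.428 RPKM in WT, 16.3, 18.7 and 18.8 in *Atm-/-* and 21.9, 23.6 and 25.4 in *Sirt6-/-*. WT was low in every sample, with 22 to 59 reads. The log2 fold changes were 4.49 (SE 0.21, edgeR adjusted p = 1.44e-10) in *Atm-/-* and 4.97 (SE 0.20, adjusted p = 1.04e-11) in *Sirt6-/-*. *Tigar*, a fructose-2,6-bisphosphatase induced by p53 that breaks the product of the PFKFB kinases, had 9.25, 8.97 and 9.13 RPKM in WT, 9.02, 8.58 and 8.28 in *Atm-/-* and 3.65, 3.71 and 3.86 in *Sirt6-/-*. *Tigar* fell by 1.37 on the log2 scale in *Sirt6-/-* (adjusted p = 5.41e-10). In *Atm-/-*, where its samples overlapped WT, it fell by 0.24 (adjusted p = 0.00637), and it did not pass there with library totals.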

How the data were processed

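RNA-Seq of 9 MEF samples (3 WT, 3 *Atm-/-* and 3 *Sirt6-/-*, grouped by sample title) was used. The labels describe oligo(dT) selection and Illumina libraries. The authors deposited a whole-number read count for each of 24341 genes, without normalization. They also deposited RPKM made from the same counts, the listed transcript length and one read total per sample. The build is mm10 per the submitters' processing notes. The aligner and counting tool are not given in the sources used here.

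Counts of each pair of genotypes were fitted in edgeR 4.0.16 (R 4.3.3) with filterByExpr, TMM, a prior count of 0.125, the quasi-likelihood test and Benjamini-Hochberg adjustment over all genes tested. The procedure was tested on simulated data in which few genes changed, as many up as down. That test does not cover comparisons in which most genes pass, as here. Shares were computed per sample from the deposited RPKM as the value of a gene over its family sum, and compared with a two-sided exact permutation test. 3 against 3 samples cannot go below 0.1. Intervals of fold changes come from the fit and include the spread between samples, and floors cover counting error only. Positions and exon lengths come from GENCODE M21 on GRCm38, start windows from RefSeq. *Tigar* was matched through a RefSeq synonym.

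Named are all 10 genes, *Atm*, *Sirt6* and *Trp53*, up to 6 genes of each list of other enzymes (those with the largest changes past the threshold), genes that overlap members, and for *Hk1*, *Hk2* and the PFK1 subunits the 2 genes of most similar pattern. *Hk3*, *Vdac3* and opposing enzymes below the filter were named in addition. The members and lists were chosen with earlier results of these data known. Alternatives were DESeq2 size factors, library totals, no filter or at least 10 reads in every sample, all 9 samples in 1 fit, a replicate block, the DESeq2 1.42.0 Wald test, a 2-fold threshold, each sample left out, and for shares read counts and exon lengths. Shares in a larger hexokinase family are not reported here. The effect of library totals on the lists was added after seeing the data.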

Additional observations from a re-analysis of the deposited data

How the results depend on the processing

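In both comparisons with WT, all 9 calls of isozyme genes held in 13 alternatives (scaling, filters, tool, samples, block). At a 2-fold threshold 3 genes (1 higher, 2 lower) passed in *Atm-/-*, 4 (2 and 2) in *Sirt6-/-* and 1 (0 and 1) between the mutants. The share of all genes that passes at this threshold was not computed. These counts therefore do not show whether the isozyme genes differ from genes in general. Among single genes, directions turned only for those that had not passed the test. With library totals *Pfkfb1* was at 0.018 in *Atm-/-* against WT and *Pfkm* at 0.023 in *Atm-/-* against *Sirt6-/-*. With each sample left out, log2 fold changes between the mutants ranged from -0.085 to 0.020 for *Pfkm* (above 0 without *Atm-/-* replicate 3) and from -0.057 to 0.065 for *Pfkfb1* (below 0 without *Sirt6-/-* replicate 2). Between the mutants the count of genes past the threshold ranged from 4 to 7 without 1 sample, 4 without *Sirt6-/-* replicate 2 or 3 and 7 without *Sirt6-/-* replicate 1. The *Pfkm* share in *Sirt6-/-* was 0.445 percentage points below WT with GENCODE exon lengths (-0.445, exact permutation p = 0.7), which divide reads by other lengths. With read counts the *Hk1* share was 38.6% in WT, 59.7% in *Atm-/-* and 70.1% in *Sirt6-/-*.

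Same-numbered samples did not deviate together (r from -0.0294 to 0.0394), so the numbers were not taken as pairs. A replicate block gave 9, 9 and 6 genes past the threshold in the 3 comparisons, and a mean paired difference of 20.8 points for the *Hk1* share in *Atm-/-* (exact sign-flip p = 0.25, the smallest 3 pairs allow). With library totals, lower genes in *Atm-/-* numbered 3 of the rest of glycolysis where TMM gave 6, 0 of the opposing enzymes where it gave 1, and 1 of the docking and regulatory genes where it gave 3, while higher genes of the last list in *Sirt6-/-* numbered 2 where it gave 1. At this depth a gene with 0 reads in a genotype, such as *Hkdc1* in WT, has a bound in place of a fold.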

Other observations

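Enzymes of branches around glucose, glucose 6-phosphate and fructose 6-phosphate were read as a list of 12 genes, all of which were tested. In *Atm-/-* against WT 5 were higher, 6 lower and 1 did not pass, with a median log2 fold change of -0.21 (0.01 over all genes tested). In *Sirt6-/-* 5 were higher, 5 lower and 2 did not pass, with a median of -0.02 (0.02 over all genes). Of all genes tested, 68.4% passed in *Atm-/-* and 76.6% in *Sirt6-/-*. With library totals 5 were higher and 4 lower in each mutant, and the log2 fold changes in *Atm-/-* moved to -0.32 for *Taldo1* and 0.44 for *Gnpda1*, both still past the threshold. *Gfpt2*, an isozyme of the first enzyme of the hexosamine pathway, had 0.475, 0.837 and 0.573 RPKM in WT, 32.7, 35.2 and 30.1 in *Atm-/-* and 2.93, 3.52 and 2.63 in *Sirt6-/-* (log2 fold changes 5.54 and 2.18, edgeR adjusted p = 6.97e-14 and 2.39e-07). *H6pd*, the hexose-6-phosphate dehydrogenase of the endoplasmic reticulum, had 7.46, 9.32 and 7.77 RPKM in WT and 30.6, 31.5 and 30.8 in *Sirt6-/-* (log2 fold change 1.83, adjusted p = 8.68e-12), while in *Atm-/-* it had 8.17, 7.90 and 8.23 (-0.18, adjusted p = 0.0732). *G6pdx*, the first enzyme of the pentose phosphate pathway, was higher by 0.68 in *Atm-/-* (adjusted p = 1.22e-07) and 0.30 in *Sirt6-/-* (adjusted p = 0.000372) on the log2 scale. *Taldo1*, transaldolase of the same pathway, fell by 0.48 in *Atm-/-* (adjusted p = 6.37e-06) and by 1.36 in *Sirt6-/-* (adjusted p = 2.23e-11). *Akr1b3*, aldose reductase, was higher by 0.64 (adjusted p = 2.18e-08) and 0.76 (adjusted p = 1.67e-09). *Gnpda1*, which returns glucosamine 6-phosphate to fructose 6-phosphate, was higher by 0.28 in *Atm-/-* (adjusted p = 0.00794) and fell by 0.58 in *Sirt6-/-* (adjusted p = 1.62e-05).

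Of 8 docking and regulatory genes, 7 were tested, with 3 higher, 3 lower and 1 not past the threshold in *Atm-/-* against WT and 1 higher, 3 lower and 3 not past it in *Sirt6-/-*, against the same 68.4% and 76.6% of all genes. With library totals 3 were higher and 1 lower in *Atm-/-*, and 2 higher and 3 lower in *Sirt6-/-*. *Vdac2* and *Vdac1* encode channels of the outer mitochondrial membrane, of which VDAC1 is the docking site of HK1 and HK2. *Vdac2* had 378, 366 and 389 RPKM in WT, 199.6, 203 and 205 in *Atm-/-* and 134, 139.8 and 135 in *Sirt6-/-* (log2 fold changes -1.06 and -1.56, edgeR adjusted p = 1.37e-11 and 2.21e-13). *Vdac1* fell by 0.73 in *Sirt6-/-* (adjusted p = 1.92e-09). In *Atm-/-* its call rests on the scaling, with a log2 fold change of -0.22 with TMM (adjusted p = 0.000236) and -0.06 with library totals (adjusted p = 0.233). *Vdac3*, the remaining channel gene of the list, did not fall. It was higher by 0.29 in *Atm-/-* (adjusted p = 5.73e-05). In *Sirt6-/-* it was at 0.07 with TMM (adjusted p = 0.196) and passed at 0.16 with library totals (adjusted p = 0.00821). *Prkaa2*, a catalytic subunit of the energy sensor AMPK, was low but higher in the mutants, by 0.51 in *Atm-/-* (adjusted p = 0.0466) and 0.83 in *Sirt6-/-* (adjusted p = 0.00176).

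Among 9363 genes, those whose centred log2 level over the 9 samples was closest to that of *Hk1* were *Dusp18* and *Tmem69* (root mean square differences of 0.093 and 0.094, where *Hk1* itself varied with an SD of 0.767). For *Hk2* they were *Ube2c* (0.048) and *Gsto1* (0.064), for *Pfkl* *Mrpl11* (0.045) and *Scamp1* (0.048), for *Pfkm* *Tbcb* (0.027) and *Crnkl1* (0.052), and for *Pfkp* *Fuca2* (0.072) and *Tspan5* (0.089).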
